A study of Mus musculus with 14 samples.

Results

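Primitive streak and definitive endoderm markers were followed in mouse embryonic stem (ES) cell lines, the cultured descendants of the inner cell mass. The 10 marker genes were a fixed list of named genes, namely *T*, *Eomes*, *Mixl1*, *Mesp1*, *Evx1*, *Gsc*, *Lhx1*, *Foxa2*, *Sox17* and *Cer1*, and all 10 were found among the 23298 genes of the deposited table. RNA was sequenced from 14 lines, each started from a single blastocyst of a cross between C57BL/6J (B) and CAST/EiJ (C) mice, with the mother's strain written first. The groups were BC XX (3 lines), BC XY (3 lines), BC XO (2 lines, from the BC cross alone), CB XX (3 lines) and CB XY (3 lines). All lines were undifferentiated, were kept in medium with leukemia inhibitory factor on inactivated embryonic fibroblasts, and went through feeder depletion before RNA was taken. No group received a treatment, and the embryos are described by their cross and sex chromosomes alone. The numbers given here to CB XX lines follow column order only.

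The primitive streak is the strip of the gastrulating epiblast through which cells leave to form mesoderm and definitive endoderm. Wnt, Nodal and BMP signals induce it, and the T-box factors *T* (Brachyury) and *Eomes* are among its first regulators. ES cells normally keep these genes low, and cultures in serum are known to hold minor populations that express some of them. Several of the markers, among them *Foxa2*, *Sox17*, *Lhx1* and *Cer1*, are also used by visceral endoderm, an extraembryonic layer, so that none of them marks the streak alone.

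Some features of the lines bear on the comparisons. CB XY 2 and CB XY 3, labelled as XY, had *Uty* values of 19.6 and 45.4, against 945 to 2088 in the BC XY lines and 1149 in CB XY 1, so they lack the Y-linked RNA of the other XY lines. *Uty* was at 66.1, 89.6 and 195 in BC XX and at 12.8, 45.1 and 57.8 in CB XX lines. The Y-linked *Kdm5d* was higher in BC XX (36.9, 62.3 and 123) than in BC XY lines (28.7, 6.65 and 6.02). The source of Y-linked RNA in XX lines was not tested. The BC XX lines had summed values of 80414 to 180652 for 20 fibroblast and mesenchymal genes, while the other lines had 6827 to 31863. Values are a read signal that had been brought to 1 common depth before deposit. If the smallest step between values is taken as 1 read, the lines hold 11904423 to 69646371 reads, and 3 reads correspond to a value of 1.22 to 7.37, under which a gene cannot be told from 0. BC XX 2 was the deepest line and CB XY 2 the shallowest. The ES cell genes *Pou5f1* (10830 to 29386), *Sox2* (6913 to 15878) and *Nanog* (4853 to 12130) were high in every line. In bulk RNA, fewer cells that express a marker and less RNA per cell cannot be told apart.

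The promoters of 4 markers are shown first, as examples. Both T-box sites and TCF/LEF sites, the DNA element of Wnt signalling, were searched in them and in the other markers with an entry. The sequences are RefSeq promoters of the GRCm38.p6 build, from 250 bases before to 50 bases after the start site, read on the strand of the gene. RefSeq entries were matched for 8 of the 10 markers, with *Mixl1* and *Sox17* unmatched. Capitals mark matches, on either strand, to CTTTGA (TCF/LEF) and AGGTGT (the core of a T-box site).
T (plus strand, chr17:8434173-8434472): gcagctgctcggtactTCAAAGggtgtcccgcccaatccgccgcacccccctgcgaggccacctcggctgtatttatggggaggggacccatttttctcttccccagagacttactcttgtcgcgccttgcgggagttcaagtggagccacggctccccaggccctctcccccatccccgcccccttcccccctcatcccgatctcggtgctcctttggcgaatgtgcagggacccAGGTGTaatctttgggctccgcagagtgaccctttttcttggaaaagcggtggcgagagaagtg
Mesp1 (minus strand, chr7:79793541-79793840): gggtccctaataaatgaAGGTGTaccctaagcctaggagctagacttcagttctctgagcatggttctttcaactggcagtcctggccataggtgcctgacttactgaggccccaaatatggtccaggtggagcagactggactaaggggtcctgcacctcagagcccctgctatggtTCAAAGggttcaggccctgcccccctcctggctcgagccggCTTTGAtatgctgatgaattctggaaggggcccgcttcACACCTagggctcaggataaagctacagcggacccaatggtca
Evx1 (plus strand, chr6:52313248-52313547): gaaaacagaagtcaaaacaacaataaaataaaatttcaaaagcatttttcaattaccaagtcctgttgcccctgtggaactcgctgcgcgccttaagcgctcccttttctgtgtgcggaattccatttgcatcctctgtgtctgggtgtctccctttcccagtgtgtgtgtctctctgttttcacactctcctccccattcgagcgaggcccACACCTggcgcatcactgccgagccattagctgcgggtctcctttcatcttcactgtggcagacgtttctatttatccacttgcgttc
Eomes (plus strand, chr9:118477939-118478238): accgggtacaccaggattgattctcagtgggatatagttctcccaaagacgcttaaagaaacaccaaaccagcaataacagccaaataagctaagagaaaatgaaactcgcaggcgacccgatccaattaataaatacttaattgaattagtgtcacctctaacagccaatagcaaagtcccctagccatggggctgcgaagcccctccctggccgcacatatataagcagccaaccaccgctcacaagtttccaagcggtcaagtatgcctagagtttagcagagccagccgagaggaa
The *T* promoter held 1 TCF/LEF match, 234 bases before the start, and 1 T-box match 14 bases before it. The *Mesp1* promoter held 2 TCF/LEF matches, 31 and 72 bases before the start, and 2 T-box matches. *Evx1* held 1 T-box match, 38 bases before the start, and *Eomes* held neither. Of all 32851 promoters in the table, 16.0% held CTTTGA and 13.7% held AGGTGT, so each match alone is common. Of the 8 markers with an entry, 3 held a TCF/LEF match and 3 a T-box match. The remaining TCF/LEF match was in *Foxa2*, which is not shown. AATNNACA, the letters searched for the Nodal cofactor Foxh1, was present in 12.2% of all promoters and in 0 of these 8. A match is a description of the letters and not evidence of binding.

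*T* and *Eomes* encode the T-box factors that start the mesoderm and endoderm programmes. *T* (mm9, chromosome 17, 8627288 to 8635361) had values of 1418, 624 and 745 in the BC XX lines, 2126, 1581 and 303 in the BC XY lines, and 1990 and 1519 in the BC XO lines. It had values of 76.8, 21.9 and 367 in the CB XX lines and 1933, 418 and 1347 in the CB XY lines. All 3 CB XX lines lay below every CB XY line and below every BC XX line, and CB XX 3 lay above the lowest BC XY line. *Eomes* (chromosome 9, 118387330 to 118395250) had 683, 576 and 939 in BC XX, 1366, 1473 and 1003 in BC XY, and 2318 and 987 in BC XO lines. In the CB cross it had 247, 440 and 480 in the XX lines and 1876, 413 and 1138 in the XY lines. The 3 BC XX lines were below every BC XY line for *Eomes*, and in the CB cross the groups overlapped through CB XY 2.

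*Mixl1*, a paired-type homeobox gene of the streak, and *Mesp1*, a basic helix-loop-helix gene of nascent cardiac and cranial mesoderm, showed unlike patterns in the XX lines. *Mixl1* (chromosome 1, 182623174 to 182627165) had 268, 164 and 345 in BC XX, 893, 421 and 203 in BC XY, 963 and 492 in BC XO, 32.7, 14.6 and 184 in CB XX, and 648, 88.4 and 270 in CB XY lines. The CB XX lines included the lowest values, but CB XX 3 was above CB XY 2. *Mesp1* (chromosome 7, 86937127 to 86938674) had 7.14, 1.63 and 1.96 in BC XX, 84.9, 24.9 and 9.37 in BC XY, 31.9 and 51.9 in BC XO, 0, 3.66 and 7.11 in CB XX, and 99.0, 12.3 and 27.3 in CB XY lines. Every XX line of both crosses was below every XY and XO line. The levels of *Mesp1* were close to the limit of detection in XX lines, with BC XX 3, CB XX 1 and CB XX 2 at 3 reads or fewer.

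*Evx1*, a homeobox gene of the posterior streak, lies on chromosome 6 (52263492 to 52268372), where it overlaps the gene 5730457N03Rik in the annotation. The kit was strand-specific, but whether the counting used the strand is not given in the sources used here, so reads of the overlap may be shared. *Evx1* had 124, 68.4 and 79.6 in BC XX, 219, 135 and 137 in BC XY, 328 and 172 in BC XO, 46.9, 124 and 66.6 in CB XX, and 428, 106 and 249 in CB XY lines. The XX lines of both crosses reached 124 at most, and of the 6 XY lines only CB XY 2 was below that. *Gsc*, a homeobox gene of the organizer, lies on chromosome 12 (105709419 to 105711537). It had 66.7, 51.3 and 31.4 in BC XX, 51.2, 34.9 and 7.36 in BC XY, 49.4 and 46.2 in BC XO, 11.4, 28 and 17.8 in CB XX, and 188, 12.3 and 74.0 in CB XY lines. XX and XY values of *Gsc* overlapped in both crosses.

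*Lhx1*, a LIM homeobox gene of the node and anterior mesendoderm, lies on chromosome 11 (84331479 to 84338923). It had 198, 238 and 325 in BC XX, 252, 299 and 95 in BC XY, 344 and 297 in BC XO, 2.84, 3.66 and 67.5 in CB XX, and 376, 24.6 and 110 in CB XY lines. In CB XX 1 and CB XX 2 it was at 3 reads or fewer, while CB XX 3 was above CB XY 2. *Foxa2* (chromosome 2, 147868613 to 147872705), a forkhead factor of node, axial mesoderm and endoderm, had 136, 91.6 and 113 in BC XX, 92.4, 106 and 58.9 in BC XY, and 93.3 and 69.0 in BC XO lines. In the CB cross it had 14.2, 8.53 and 37.3 in the XX lines and 182, 31.9 and 131 in the XY lines, again with CB XX 3 above CB XY 2. All 3 CB XX lines were below every line of the BC cross for *Foxa2*.

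*Sox17*, an HMG-box regulator of endoderm, lies on chromosome 1 (4481009 to 4486494). It had 61.9, 53.7 and 91.4 in BC XX, 20, 58.2 and 53.5 in BC XY, 86.9 and 35.6 in BC XO, 11.4, 26.8 and 15.1 in CB XX, and 76.7, 22.1 and 24.7 in CB XY lines. *Cer1* (chromosome 4, 82527655 to 82531052) encodes a secreted antagonist of Nodal, BMP and Wnt made by anterior endoderm. It had 324, 341 and 655 in BC XX, 131, 270 and 62.9 in BC XY, 180 and 105 in BC XO, 9.95, 1.22 and 36.4 in CB XX, and 127, 14.7 and 42.8 in CB XY lines. *Cer1* ranged 538-fold between BC XX 3 and CB XX 2, the widest range of the 9 markers listed above 0 in every line, and CB XX 2 was at 3 reads or fewer. Its 3 highest lines were the BC XX lines, which was so for no other marker.

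**Figure D1:**
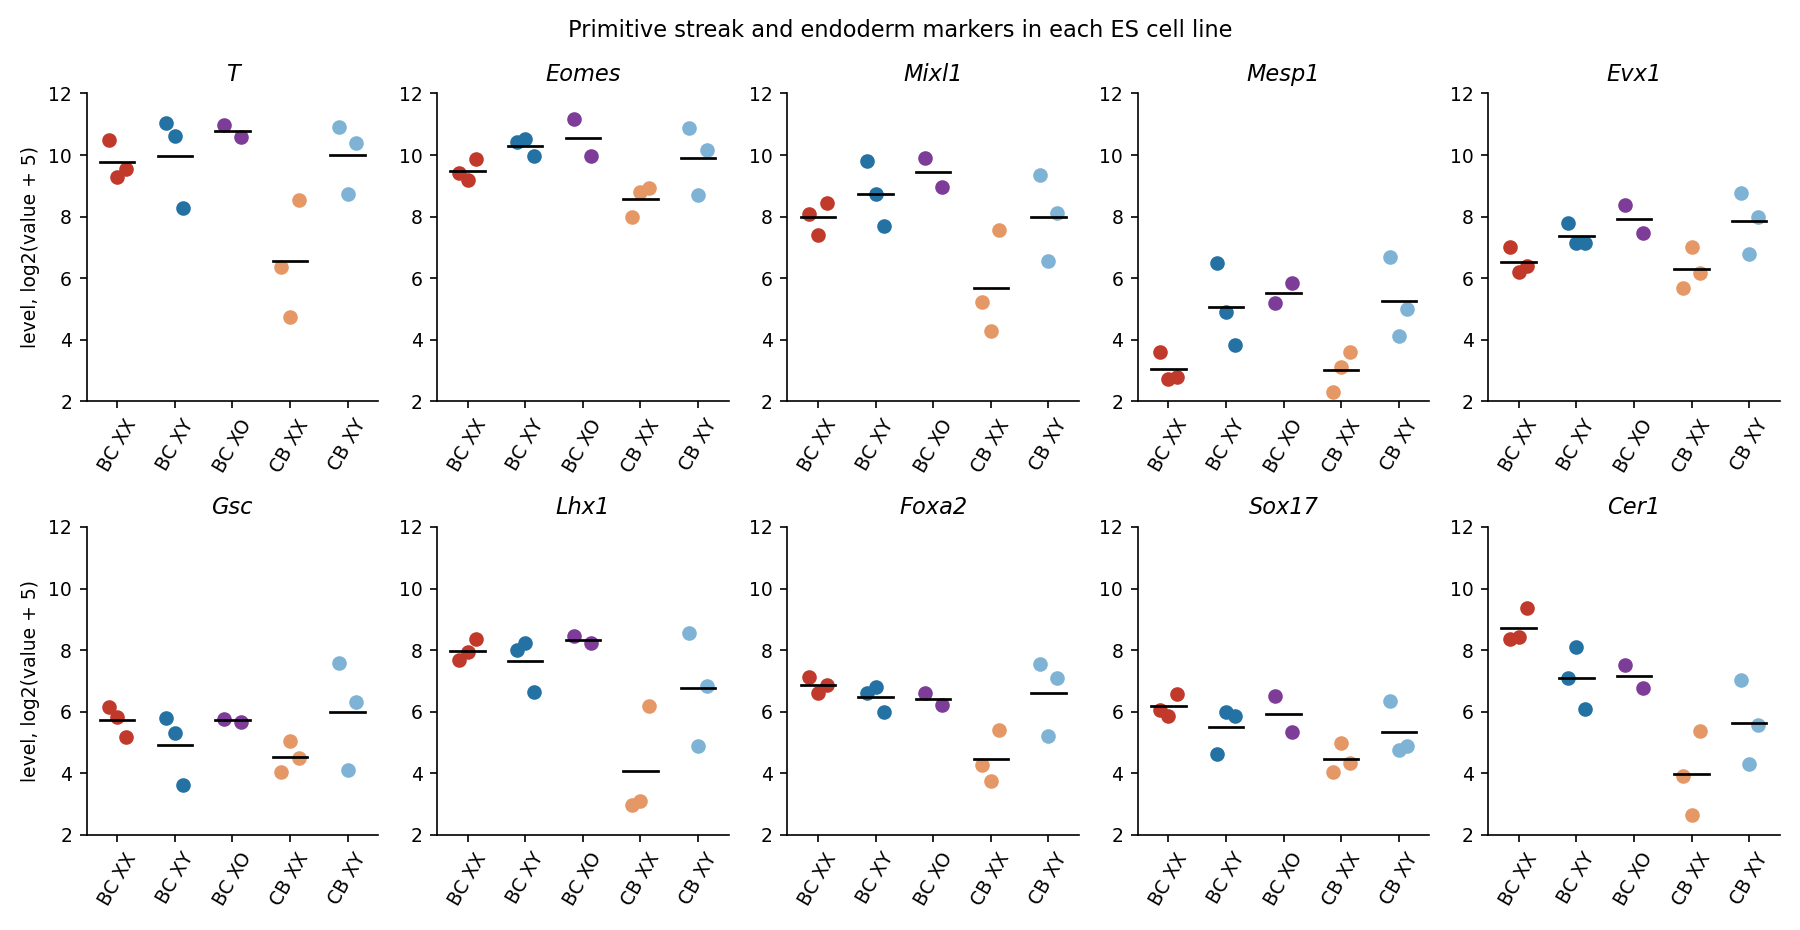
Level of each marker in each line, as log2(value + 5), by group; a point is a line and the bar is the group mean (3 lines, or 2 for BC XO). *T*, *Eomes*, *Gsc*, *Lhx1*, *Foxa2*, *Sox17* and *Cer1* show every CB XX line below every BC XX line. *Mesp1* shows the XX lines of both crosses below the XY and XO lines.

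Levels of different genes were compared per kilobase of exon, as means over the 14 lines with their SD. *T* was the highest at 447 ± 323, followed by *Eomes* at 240 ± 144, *Mixl1* at 155 ± 130 and *Cer1* at 94.6 ± 105. *Evx1* (56.7 ± 37.9), *Lhx1* (45.6 ± 32.5), *Gsc* (37.8 ± 35.8), *Foxa2* (35.1 ± 21.0), *Mesp1* (20.3 ± 24.8) and *Sox17* (14.4 ± 8.58) came next. Each neighbouring pair in this order differed by less than the larger of the SDs over lines.

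The lines of 1 group differed widely in these genes. On the log2(value + 5) scale the SD within groups was 0.66 (*Evx1*) to 1.3 (*T* and *Lhx1*), while the median of all genes tested was 0.32, and each marker varied more than 93.5% to 99.8% of those genes. CB XY 1 was above CB XY 2 for 10 of 10 markers, by 3.47-fold (*Sox17*) to 15.3-fold (*Gsc*), and CB XY 3 was above CB XY 2 for 10 of 10. CB XX 3 was above CB XX 1 for 10 of 10 markers. In the BC cross, BC XY 1 was above BC XY 3 for 9 of 10 markers, with *Sox17* as the exception. The lowest of the 14 lines was a CB XX line for 9 of 10 markers and BC XY 3 for *Gsc*. The highest was CB XY 1 for 5 markers, BC XO 1 for 2, BC XX 3 for 2 and BC XY 1 for 1.

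**Figure D2:**
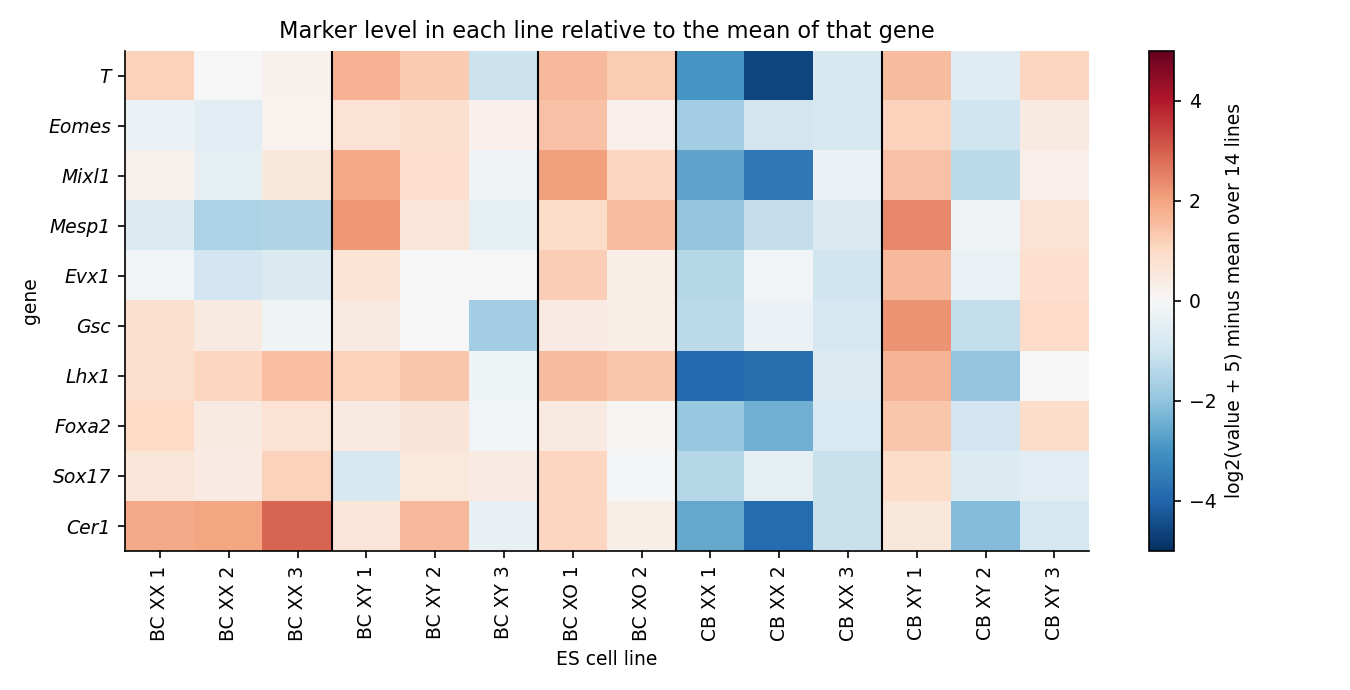
Level of each marker (rows) in each line (columns), as log2(value + 5) minus the mean of that gene over the 14 lines; vertical lines separate the groups. CB XX 1 and CB XX 2 are low for nearly all markers, CB XY 1 is high, and CB XY 2 lies below CB XY 1 and CB XY 3 throughout.

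All 10 markers passed the filter on low values in the model of 5 groups, *Mesp1* through its XY and XO lines alone, so its differences are given as a description. In the CB cross, XX lines were compared with XY lines to ask whether marker levels depend on the sex chromosomes. *T* was lower in CB XX lines, with a log2 fold change of -3.47 (SE 0.85) and a mean of 155 ± 185 (SD, n = 3) against 1233 ± 764 (limma, adjusted p = 0.0387). *Foxa2* was also lower, at -2.14 (SE 0.53), with 20 ± 15.2 against 115 ± 76.2 (limma, adjusted p = 0.0383). These 2 of 10 markers were called at an FDR of 0.05, and 3.57% of all 16261 genes tested were called in this comparison. The other 8 markers had log2 differences of -0.88 (*Sox17*) to -2.68 (*Lhx1*) and did not pass. *Evx1* was at -1.55 (SE 0.47, limma adjusted p = 0.0845) and *Mesp1* at -2.26 (SE 0.66). The median difference of the 10 markers, *Mesp1* included, was -1.90, beside -0.022 over all genes. Of the markers, 2 (*T* and *Mesp1*) had every CB XX line below every CB XY line, as did 11.5% of all genes tested. Given how *Mesp1* passed the filter, only *T* counts here.

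Both calls depended on which lines entered. When CB XY 2 and CB XY 3 were left out, CB XY 1 stood alone and was assumed to vary like the other groups. *Foxa2* then differed by -3.07 (limma, adjusted p = 0.0293), *Eomes* by -2.31 (adjusted p = 0.0452) and *T* by -4.37 (adjusted p = 0.126), beside 0.823% of all genes called. With single lines left out, *T* and *Foxa2* each kept the call in 6 of 14 fits. Both lost it without BC XX 2, BC XY 2, BC XO 1, BC XO 2, CB XX 1, CB XX 2, CB XY 1 or CB XY 3, with adjusted p up to 0.186 for *T* and 0.183 for *Foxa2*, and both kept their direction. Without CB XX 3, 4 markers were called, *Lhx1* at -3.73 (adjusted p = 0.0181) and *Mixl1* at -3.23 (adjusted p = 0.0258) being added, beside 4.03% of all genes. Without CB XY 2, 5 were called, with *Eomes* at -1.95 (adjusted p = 0.0311), *Evx1* at -2.08 (adjusted p = 0.0359) and *Lhx1* at -3.62 (adjusted p = 0.0477) added, beside 1.29% of all genes.

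In the BC cross, 0 of 10 markers passed in XX against XY lines by limma, where 5.70% of 16261 genes were called. An unadjusted p under 0.05 was reached by 3749 of all genes tested and by 2 markers. These were *Mesp1*, at -2.04 (SE 0.66, 3.58 ± 3.09 against 39.7 ± 39.9, n = 3), and *Cer1*, at 1.63 (SE 0.73, 440 ± 186 against 155 ± 106, limma adjusted p = 0.195). *Mesp1* passed the filter only through XY and XO lines, so its difference is no support and only *Cer1* counts. For *T* the difference was -0.21 with a 95% interval of -2.04 to 1.62, and for *Foxa2* it was 0.41 with an interval of -0.72 to 1.53. Markers were split, 5 with positive and 5 with negative differences, *Mesp1* being among the latter, and the median was 0.07. For BC XX, 14 of the 20 mesenchymal genes were called higher than in BC XY lines and 0 lower. With the mean level of that list as a covariate 0 markers were called, beside 6 of all 16261 genes. BC XX lines (mean log2 level 10.15 to 11.37) and BC XY lines (7.47 to 8.83) do not overlap in it, so group and mesenchymal level cannot be told apart. With this covariate the signs changed, with 2 positive and 8 negative estimates and a median of -2.06. *Lhx1* then stood at -2.65 (SE 1.31, adjusted p = 0.566), *Gsc* at -1.72 (SE 1.07, adjusted p = 0.674) and *Foxa2* at -0.93 (SE 0.89, adjusted p = 0.816), while *Cer1* was at 0.03 (SE 1.27).

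The XO lines carry a single X and no Y, and allow both to be compared within the BC cross. BC XO and BC XY lines differed in 0 of 10 markers by limma, with 0.00615% of genes called. An unadjusted p under 0.05 was reached by 242 of 16261 genes and by 0 markers. Differences ranged from -0.05 (*Foxa2*) to 0.80 (*Gsc*), with wide intervals, for example -1.26 to 2.83 for *T*. BC XX against BC XO lines gave 0 of 10 calls by limma, beside 4.66% of all genes. An unadjusted p under 0.05 was reached by 3851 of 16261 genes and by 2 markers. They were *Evx1*, at -1.39 (SE 0.52, limma adjusted p = 0.126), and *Mesp1*, at -2.47 (SE 0.74). *Mesp1* passed the filter only through XY and XO lines, so only *Evx1* counts. BC XX lines serve in both comparisons, so these are not independent of the values against BC XY.

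Over both crosses, 6 XX lines were compared with 6 XY lines. *Mesp1* reached a value of 10 in only 5 of the 12 lines and was not tested, so 9 markers remained. By limma 0 of 9 were called, beside 5.21% of 15311 genes. An unadjusted p under 0.05 was reached by 3544 of all genes tested and by 4 markers. The nearest were *Evx1*, at -1.19 (SE 0.33; 85.0 ± 32.2 against 212 ± 119, n = 6; adjusted p = 0.0542), and *Eomes*, at -1.08 (SE 0.35; adjusted p = 0.0919). With the cross as a covariate both were called, at adjusted p = 0.0366 and 0.0386, beside 11.1% of all genes. Both were also called without CB XY 2, at adjusted p = 0.0469 and 0.025, beside 2.88% of all genes. Without both CB XY 2 and CB XY 3, *Eomes* alone was called (-1.42, adjusted p = 0.041), beside 2.01% of all genes. With the mesenchymal level as a covariate 6 were called (*T*, *Eomes*, *Mixl1*, *Evx1*, *Lhx1* and *Foxa2*), all lower in XX lines, beside 2.51% of all genes. In that level the BC XX lines (mean log2 10.15 to 11.37) lay above every other line. It is therefore partly confounded with the XX lines, and these estimates are no corrected XX effect. Without that covariate, *Cer1* (-0.02, interval -2.30 to 2.25) and *Sox17* (-0.10, interval -1.08 to 0.87) had differences near 0.

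**Figure D3:**
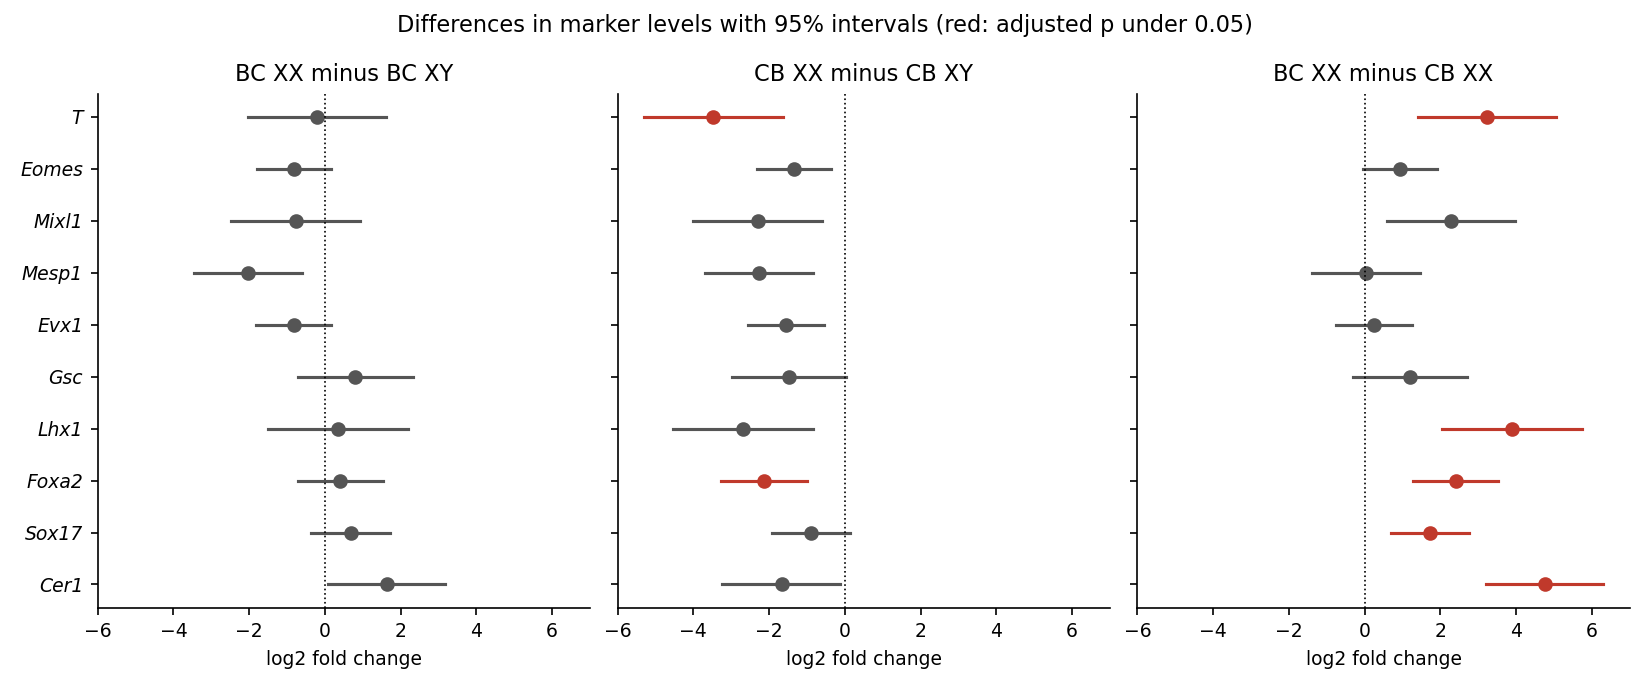
Log2 fold change of each marker in 3 comparisons of the model of 5 groups, with the 95% interval as a line; red marks an adjusted p under 0.05. *T* and *Foxa2* pass in the CB cross, no marker passes in the BC cross, and *T*, *Lhx1*, *Foxa2*, *Sox17* and *Cer1* pass between the XX lines of the crosses.

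XX lines of the reciprocal crosses have the same autosomal strains and differ in the parent that gave each, so BC XX and CB XX lines were compared next. By limma 5 of 10 markers were higher in BC XX lines, beside 7.15% of all genes called. *Cer1* was higher by 4.75 (SE 0.73; 440 ± 186 against 15.9 ± 18.3, n = 3; adjusted p = 0.0036) and *Lhx1* by 3.90 (SE 0.86; 254 ± 65.2 against 24.7 ± 37.1; adjusted p = 0.0212). *T* was higher by 3.23 (adjusted p = 0.0389), *Foxa2* by 2.40 (adjusted p = 0.0211) and *Sox17* by 1.73 (adjusted p = 0.0464). *Mesp1* (0.03, interval -1.39 to 1.46) and *Evx1* (0.25, interval -0.75 to 1.24) did not pass. For 7 of 10 markers every BC XX line was above every CB XX line, as was so for 14.2% of all genes tested.

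The call of *Cer1* held with each of the 14 lines left out, and that of *Lhx1* and of *Foxa2* in 10 of 14 such fits. *Lhx1* and *Foxa2* lost it without BC XX 2, BC XX 3, CB XX 1 or CB XX 2. *T* held in 5 of 14 and *Sox17* in 4 of 14. *T* lost its call without BC XX 1, BC XX 2, BC XX 3, BC XY 2, BC XO 1, BC XO 2, CB XX 1, CB XX 2 or CB XY 3, and *Sox17* lost it without these and without CB XX 3. Without CB XX 3, *Mixl1* was called too, at 3.22 (adjusted p = 0.0119), beside 15.9% of all genes. Without CB XY 2 and CB XY 3 the adjusted p of *T* was 0.0516 and the other 4 calls held. The summed mesenchymal level was also higher in BC XX (80414 to 180652) than in CB XX lines (11333 to 31863), with 10 of 20 genes called higher. With the mean level of that list as a covariate 0 of 10 markers were called by limma, and the share of all genes called fell to 0.252%, *Cer1* being at 3.68 (SE 0.99, adjusted p = 0.214) and *Lhx1* at 1.88 (SE 1.02, adjusted p = 0.625), with 6 positive and 4 negative estimates. Group and mesenchymal level are largely confounded in these 6 lines and cannot be told apart.

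BC XY and CB XY lines gave 0 of 10 calls by limma, beside 0.640% of all genes. An unadjusted p under 0.05 was reached by 3042 of 16261 genes and by 0 markers. *Cer1* had the largest difference, 1.45 (interval -0.10 to 3.00), and *T* was at -0.03 (interval -1.86 to 1.80). The interaction of sex and cross, which compares the XX-to-XY difference between crosses, was called for 0 of 10 markers by limma and for 0.0738% of all genes. All 10 estimates were positive, as were those of all 20 mesenchymal genes (median 2.0). An unadjusted p under 0.05 was reached by 1471 of 16261 genes and by 6 markers. With the mesenchymal level as a covariate 6 were positive and 4 negative, the latter being *Eomes* (-0.98), *Evx1* (-0.48), *Mesp1* (-1.71) and *Mixl1* (-0.41), and *Lhx1* was at 0.41. That level is largely confounded with the BC XX group here too. Without that covariate, the largest by limma were *Cer1* at 3.30 (SE 1.03, adjusted p = 0.333), *T* at 3.26 (SE 1.21, adjusted p = 0.418), *Lhx1* at 3.03 (SE 1.22, adjusted p = 0.474) and *Foxa2* at 2.55 (SE 0.74, adjusted p = 0.291). The XX effects on these markers were therefore not shown to differ between crosses.

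The markers were positively correlated with each other across lines. Over the 14 lines all 45 pairs of markers had a positive Pearson r of their log2 levels, with a median of 0.676 and a range of 0.155 to 0.948. For 32 pairs the permutation p adjusted over the 45 pairs was under 0.05. Lines were shuffled without regard to group, so this p includes differences between groups. The same counts were not computed for pairs of other genes, so neither count has a background here. Within groups, after the mean of each group was subtracted, 44 of 45 remained positive with a median of 0.683. *T* and *Mixl1* were the closest pair, with r = 0.948 and rho = 0.934 (permutation test, two-sided, p = 1e-05 for each, the smallest that 100000 resamples give; adjusted p = 0.00045). With the 2 lines that lay farthest from the median of *T* removed, r was 0.837, and within groups it was 0.917. *Mesp1* and *Evx1* had r = 0.868 (permutation p = 6e-05, adjusted p = 0.00045) and rho = 0.899 (permutation p = 5e-05, adjusted p = 0.00075), and r was 0.825 with the 2 farthest lines removed and 0.683 within groups. *Mesp1* was at 7.14 or less in every XX line, close to the limit of detection, which limits all of its pairs in these counts. The loosest pairs joined *Mesp1* or *Evx1* with *Cer1* or *Sox17*, such as *Cer1* and *Mesp1* with r = 0.191 (permutation p = 0.512, adjusted p = 0.536) and rho = 0.073 (permutation p = 0.808, adjusted p = 0.808). That r was -0.212 with the 2 farthest lines removed and 0.516 within groups. The lines share their groups, and depth and mesenchymal level also differ between them.

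The 3 genes with the pattern most like each marker were sought among all genes tested, by Pearson r over the 14 lines. *Cyp26a1*, which encodes a retinoic acid hydroxylase, was among the 3 for *T* (r = 0.950), *Mixl1* (0.960), *Lhx1* (0.970) and *Foxa2* (0.934), and it ranged from 6.09 to 1220 in value. *Fgf5*, a growth factor of the primed epiblast, was the closest to *Lhx1* (r = 0.983, range 134 to 1680). *Vrtn* was the closest to *T* (0.960), *Aplnr*, a receptor of nascent mesoderm, to *Mixl1* (0.964), and *Adamts15* to *Eomes* (0.941). For *Eomes* the list also held *Kdr*, the VEGF receptor of early mesoderm (0.914). *Foxa1*, the paralog of *Foxa2*, was the closest to *Sox17* (0.872). *Dkk1*, a secreted Wnt antagonist, followed for *Cer1* (0.936), after *Ilk* (0.950) and *Ank2* (0.945). *Slpi* was the closest to *Mesp1* (0.952), *Nkx6-1* to *Evx1* (0.920) and *Rprm* to *Gsc* (0.872). Other places went to *Cachd1* for *T* (0.948), *Car2* for *Eomes* (0.919) and *Ano5* for *Mixl1* (0.964). *Gata6*, a gene of primitive and visceral endoderm, was among those for *Lhx1* (0.960). *Gsc* also had *Xkr4* (0.865) and *Col27a1* (0.844), and *Sox17* had *Fam89a* (0.862) and *Flt1* (0.856). For *Mesp1* they were *Nefl* (0.925) and *Limd2* (0.903), and for *Evx1* *Sirt4* (0.920) and *Tead2* (0.896). Of these 30 places, 2 were taken by other markers, *Lhx1* and *T*, both for *Foxa2*.

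Other genes of the streak were read in the same comparisons. Of 22 further genes of primitive streak and nascent mesoderm 21 were tested, and in CB XX against CB XY lines 6 fell and 0 rose at an FDR of 0.05 by limma, beside 3.57% of all genes called. The differences were negative for 18 and positive for 3, with a median of -1.09 beside -0.022 over all genes. The growth factor gene *Fgf8* fell by 3.48 (SE 0.61, adjusted p = 0.00856), from 640, 157 and 427 in CB XY to 11.4, 17.1 and 85.3 in CB XX lines. *Sp5*, a Wnt target gene, fell by 2.76 (SE 0.43, adjusted p = 0.00504), from 638, 236 and 347 to 64.0, 34.1 and 60.4. The Wnt ligand *Wnt3* fell by 2.19 (adjusted p = 0.0265) and *Sp8* fell by 2.5 (adjusted p = 0.0447). The caudal-type homeobox gene *Cdx1* fell by 1.81 (adjusted p = 0.0442). The sixth gene, *Wnt3a*, passed the filter only through CB XY and XO lines, with values of at most 20.2, so its call is no support and 5 genes remain. In the BC cross 1 of 21 rose and 0 fell, the Nodal antagonist *Lefty2* at 1.00 (limma adjusted p = 0.0499), beside 5.70% of all genes called. Over both crosses 4 of 20 fell (*Cdx1*, *Sp5*, *Wnt3* and *Kdr*) and 1, *Lefty2*, rose by 0.95 (limma adjusted p = 0.0162). The share of all genes called there was 5.21%.

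**Figure D4:**
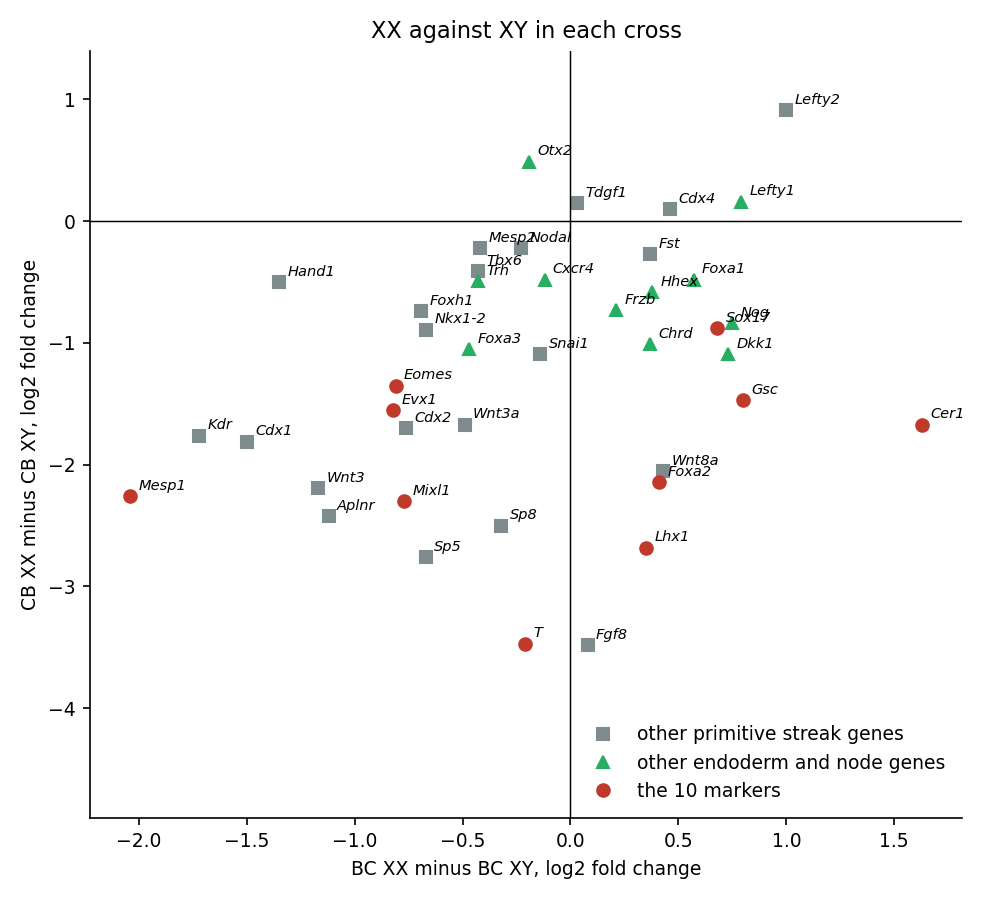
Log2 fold change of XX against XY lines in the BC cross (horizontal) and in the CB cross (vertical), for the 10 markers and for the tested genes of the streak and endoderm lists. The 10 markers all lie below 0 on the vertical axis, down to -3.47 for *T*, and on both sides of 0 on the horizontal axis.

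Between the XX lines of the crosses, *Fgf8* and *Wnt8a* were higher in BC XX lines, each by 2.23 (limma adjusted p = 0.0432 for each). The other 19 streak genes tested did not pass. These 2 of 21 genes stand beside 7.15% of all genes called. In BC XX against BC XO lines, 1 of 21 streak genes, *Cdx1*, was lower, at -2.19 (limma adjusted p = 0.0339), beside 4.66% of all genes called. Of 14 further genes of definitive endoderm, node and anterior mesendoderm 11 were tested. By limma 0 were called in XX against XY lines in the BC cross, in the CB cross or over both. The shares of all genes called there were 5.70%, 3.57% and 5.21%. In BC XX against CB XX lines 2 of 11 were higher, *Dkk1* by 2.5 (limma adjusted p = 0.00224) and *Foxa1* by 1.55 (adjusted p = 0.0412), beside 7.15% of all genes called. The node genes *Shh* and *Noto* and the presomitic gene *Msgn1* stayed at or below 8.77 in every line.

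Markers of other cell types were read in the same comparisons. For primitive and visceral endoderm, 12 of 15 genes were tested. By limma 0 were called in CB XX against CB XY lines, beside 3.57% of all genes. In BC XX lines *Sparc* and *Col4a1*, matrix genes that fibroblasts also express, rose against BC XY, BC XO and CB XX lines. *Gata6* and *Apob* rose against CB XX lines. These were 2, 2 and 4 of the 12 genes, beside 5.70%, 4.66% and 7.15% of all genes. Over both crosses *Sparc* rose and *Lama1* fell, beside 5.21% of all genes called. *Hnf4a*, which all 6 XX lines carried past the filter, was also called higher. The visceral endoderm genes *Afp*, *Ttr* and *Apoa1* stayed at or below 14.7. For trophoblast, 9 of 11 genes were tested and 0 were called within either cross. In BC XX against CB XX lines *Krt8* (2.37) and *Krt18* (2.28) were higher and *Tfap2c* (-0.90) lower, beside 7.15% of all genes called. *Tpbpa* stayed at or below 0.711. Of 12 genes of pluripotent ES cells 1 was called in the CB cross, beside 3.57% of all genes. It was *Prdm14*, which rose by 1.13 in CB XX lines (limma adjusted p = 0.0328). Their summed values were 144338 to 197643 in CB XX and 137052 to 159019 in CB XY lines. *Klf2* was lower in BC than in CB lines of either sex, at -1.46 in XX and -1.63 in XY lines. The mesenchymal list had 0 of 20 genes called in CB XX against CB XY lines, with summed values of 11333 to 31863 and 7388 to 27064. The differences of that list were positive for 17 genes and negative for 3, with a median of 0.33.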

How the data were processed

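Total RNA was made into stranded libraries, sequenced as single-end reads and mapped with TopHat2 to mm9, and the submitters' processing notes also name Cuffdiff. The values are a read signal per gene that the authors scaled to a common depth and deposited without read counts. In each line 98.7% to 99.0% of low values were whole multiples of 1 step (tolerance 0.05 step). Not all of them were, and no count test was used. Groups follow the sample labels. From the deposited signal, log2(value + 5) was computed and fitted with limma 3.58.1 (trended variance) in R 4.3.3, p-values being adjusted by Benjamini-Hochberg across every gene tested, FDR 0.05 and intervals of 95%. Fold changes on this scale understate changes of low genes. Genes needed a value of 10 or more in at least 6 lines over both crosses. In the model of 5 groups on 14 lines they needed it in at least 2. The 6 is the size of the smaller group and fell when an XX or XY line was left out. Excluded were 15 genes that are at 0 throughout a group but at 100 or more elsewhere. XX and XY were compared over 12 lines, and all other comparisons came from the model of 5 groups, so they share lines.

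Lists of streak, endoderm and node, primitive and visceral endoderm, trophoblast, mesenchymal, pluripotency and Y-linked genes were used, the last only as a check. The markers, lists and alternatives were chosen with earlier results of these data known. All 10 markers are described, list genes are named where they passed or for an extreme level, and the 3 most similar genes by Pearson r are given. Python 3.11.15 with pandas 2.3.3, scipy 1.17.1 and matplotlib 3.10.9 was used for tables, permutation tests and figures. Steps were tested on simulated data with the spread of all genes tested. Of 200 genes with a log2 change of 1, 36% were called within either cross and 63% over both. The markers vary more within groups than most genes, so a marker that was not called may still differ. Alternatives changed the pseudocount (1, 20), the filter (none, 50), the scaling, the prior, covariates and the lines. Lines were prepared in library batches that the sources used here do not assign, so batch was not modelled. P-values measure the spread between independently derived lines.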

Additional observations from a re-analysis of the deposited data

Results flagged for a closer look

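One value stood apart within its group. On the scale of the deposited values, *Gsc* in CB XY 1 had a value of 188, against 74.0 in CB XY 3, the next of the 6 XY lines, and 7.36 in BC XY 3, the lowest. The gap to the next line was 0.631 of the range of the 6 lines, above the 95% critical value of Dixon's test for 6 samples. On the log2(value + 5) scale used for the comparisons the gap was 0.325 of the range, which is below that critical value. The 10 markers were examined in the 6 XX and in the 6 XY lines, 20 groups in all, and chance flags about 1 in 20 groups.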

How the results depend on the processing

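Alternatives left each called marker's direction as it was, with 0 reversals, but moved the counts of markers called, and the counts over all genes moved too. Over both crosses (0 markers and 797 genes called) there were 1 marker and 694 genes without a filter, 6 and 385 with the mesenchymal level as a covariate, 2 and 1697 with the cross as a covariate, 1 and 313 without CB XY 2 and CB XY 3, and 0 to 2 and 410 to 1746 with single lines left out. For CB XX against CB XY (2 and 581) there were 0 and 493 without a filter, 0 and 152 with only the 6 lines of both groups, 6 and 714 with the mesenchymal covariate, and 0 to 5 and 145 to 653 with single lines left out. For BC XX against CB XX (5 and 1162) there were 3 and 586 without a filter, 0 and 41 with the mesenchymal covariate, 1 and 78 with only the lines of both groups, and 1 to 5 and 119 to 2576 with single lines left out. For BC XX against BC XO (0 and 758) there were 2 and 818 with only those lines, and 0 to 1 and 5 to 1093 with single lines left out. These counts include *Mesp1*, which passed the filter only through XY and XO lines. Over both crosses the filter asked for as many lines as the smaller group held, so it loosened when an XX or XY line was left out. *Mesp1*, at 10 or more in 5 of the 12 lines, could then be tested. It was the marker called without a filter. It was also the only marker called without BC XX 1, BC XX 2, BC XX 3, BC XY 3, CB XX 1, CB XX 2 or CB XX 3. The cause of the other shifts was not tested. Pseudocounts of 1 and 20, a minimum of 50, both other scalings and the robust prior kept each count of markers within 1.5 times. Tests on read counts were not run, since the values came without read counts and not every low value was a whole multiple of the step. Line numbers do not pair the samples: same-numbered lines deviated together at r from -0.49 to 0.27, with 4 of 15 pairs over 0.1, beside 9 of 30 differently numbered pairs. A fit with the line number as a replicate block, possible without the CB XX lines, called 0 markers in each of the 4 comparisons it allows (BC XX with BC XY or BC XO, and BC XY with BC XO or CB XY), and moved the count of all genes called in BC XX against BC XO from 1095 to 332. Depth limits *Mesp1*, *Lhx1* and *Cer1*, which were at 3 reads or fewer in 3, 2 and 1 lines.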
